A study of Drosophila melanogaster with 2 samples.

Results

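The genes described here are 58 homeobox genes of Drosophila melanogaster other than the Hox genes, listed by symbol, among 13968 protein-coding genes of the annotation. All 58 symbols matched. They fell into 9 classes: NK-like (14 genes), HOX-like (10), paired (16), LIM (5), POU (3), CUT (2), Iroquois (Iro, 3), other TALE (2) and sine oculis (relatives of so and Six4, 3). The genes bcd, zen, zen2 and ftz lie within the Antennapedia complex but are not counted as Hox genes, and they are on the list. Some other homeobox genes are not on it, the Bar genes among them. Chromatin immunoprecipitation sequencing (ChIP-seq) had been run on whole embryos of both sexes, aged 6 to 22 hours, of a transgenic strain named B-H2-GFP, which stably expresses B-H2 with GFP fused to its C terminus. There was 1 group with 2 samples, biological replicates 1 and 3, and no second condition. Both samples carry the same transgene and come from the same donor strain. The labels give B-H2 as antibody target, yet their free text describes both samples as an input control, and the peak lists do not settle this. Each replicate had a list of 30000 peaks, the pooled alignments gave another 30000, and 4277 peaks made up the authors' IDR set. IDR stands for irreproducible discovery rate, which scores whether a peak keeps its rank from replicate to replicate. Those 4277 were the pooled peaks of highest signal. Read depth is unknown. In chromatin from whole embryos, strong binding in few cells and weak binding in many cannot be told apart.

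Homeobox genes encode transcription factors with a homeodomain, a DNA-binding fold that reads short AT-rich sites, many of them with a TAAT core. Their classes are told by the sequence of the homeodomain and by partner domains, such as the LIM zinc fingers, the POU domain, the cut repeats, the paired domain, the domain shared by so and Six4 and the extra loop of TALE proteins. In embryos they set up segments, germ layers and organs and then the identity of single neurons and muscles, and many regulate one another. B-H2, the antibody target by the labels, is itself a homeodomain protein. It belongs, like B-H1, to the Bar family of the NK-like branch, known from external sense organs, eye and leg.

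A gene's window was its body plus 5 kb on either side of each annotated transcription start site (TSS), and a peak was placed by its summit. The sequences below are those of 8 IDR summits in the windows of homeobox genes. They are chosen examples from 4 classes, not a fair sample of the summits from which the counts below are made. Each runs 50 bp to either side of the summit, shortened where an annotated untranslated region begins. Letters are from the RefSeq dm6 assembly (Release 6), plus strand, 5′ to 3′. Capitals mark any of 8 searched sites on either strand. Of these, TAATTG and TAATTA as well as TAATTT and also TAAACG are of a homeodomain type. The others were TATCGA and GGTCAC along with GAGAGA and lastly CAGGTA. Where AAATTA is in capitals, it is TAATTT read from the other strand, and CAATTA is TAATTG likewise. Most of the 8 sequences hold such a site. The strongest IDR summits at homeobox genes, otp (signal 592) and Dll (552), hold none within 50 bp and are not printed. Members of the NK-like class are tin and lbe, of the HOX-like class cad and btn, of the paired class eyg, ey and toy, and of the POU class nub.
tin, 3R:21378684-21378784: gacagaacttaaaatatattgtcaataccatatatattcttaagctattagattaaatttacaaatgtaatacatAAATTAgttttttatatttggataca
lbe, 3R:21446538-21446624: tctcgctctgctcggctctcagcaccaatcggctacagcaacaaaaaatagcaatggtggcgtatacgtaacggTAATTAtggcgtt
cad, 2L:20773865-20773965: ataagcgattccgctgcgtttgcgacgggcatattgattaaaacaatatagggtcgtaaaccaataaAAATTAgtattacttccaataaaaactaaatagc
btn, 3R:22587628-22587728: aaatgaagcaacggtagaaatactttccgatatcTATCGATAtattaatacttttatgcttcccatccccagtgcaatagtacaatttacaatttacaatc
eyg, 3L:12468185-12468285: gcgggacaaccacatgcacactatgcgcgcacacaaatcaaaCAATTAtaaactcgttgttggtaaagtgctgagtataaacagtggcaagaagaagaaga
ey, 4:696879-696979: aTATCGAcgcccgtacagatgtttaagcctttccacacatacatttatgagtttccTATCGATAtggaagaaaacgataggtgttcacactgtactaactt
toy, 4:989539-989639: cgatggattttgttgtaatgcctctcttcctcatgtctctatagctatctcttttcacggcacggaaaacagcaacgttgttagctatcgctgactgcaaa
nub, 2L:12593562-12593624: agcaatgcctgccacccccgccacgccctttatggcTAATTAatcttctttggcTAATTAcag

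The sequences of tin, lbe, cad and eyg hold a single TAATT-type match each, and that of nub holds TAATTA at 2 places. Those of btn and ey carry TATCGA, which in both overlaps its own reverse complement as TATCGATA. The toy sequence, 136 bp before the TSS of toy, holds none of the 8 sites.

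Fewer of the homeobox genes than of all genes held a summit of the IDR list. An IDR summit lay in the windows of 13 of the 58, which is 22.4% (exact 95% interval 12.5 to 35.3). Over all 13968 genes the share was 44.7%, above that interval. In the 30000 pooled peaks, 36 of the 58 had a summit (62.1%, 48.4 to 74.5), against 77.0% of all genes. That order turned when the gene body alone was counted, with 22 of the 58 (37.9%), against 35.3% of all genes. Of the 36 with a pooled summit, 13 also had one in the IDR list (36.1%, 20.8 to 53.8), against 58.0% over all genes with a pooled summit. With 1 group there is no test between conditions. The intervals cover the counting of genes only, and neighbouring genes share summits.

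The homeobox genes stood alone more often than other genes, and the 2 shares lay closer among genes alike in that. No TSS of another gene lay in the window for 40 of the 58 (69.0%), against 14.8% of all genes. Among those isolated genes, 6 of the 40 homeobox genes had an IDR summit (95% interval of the share 5.71% to 29.8%), and the share over all 2063 isolated genes was 17.9%. Among genes with another TSS in the window the counts were 7 of 18 (38.9%, 17.3 to 64.3), against 49.3%. When a summit counted only if its nearest TSS was the gene's own, 10 of the 58 had one (17.2%, 8.59 to 29.4), against 21.9%. In these 3 counts the share over all genes lay inside the homeobox genes' interval. Pooled summits lay in 20 of the 40 isolated homeobox windows (interval 33.8% to 66.2%), against 64.3% of all isolated genes. The homeobox genes were also long, with a median of 10643 bp against 2164 bp over all genes. Among genes of at least 5000 bp, 3492 in all, 8 of 37 homeobox genes had an IDR summit (21.6%, 9.83 to 38.2), against 51.5%.

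**Figure D1:**
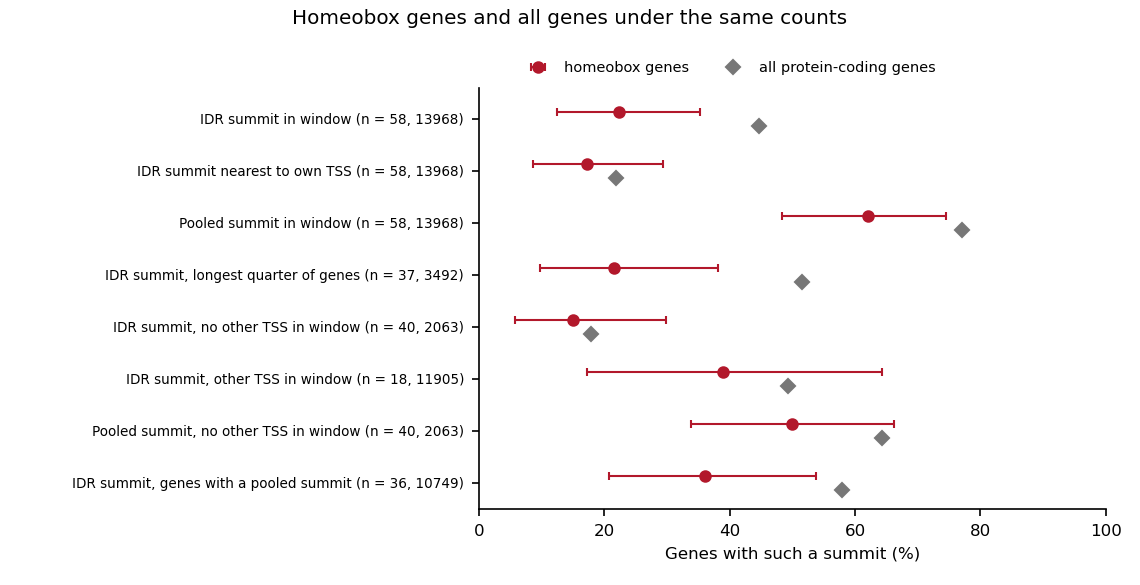
Share of genes with a summit (%, x axis) under 8 counts (rows, with the number of homeobox genes and of all genes counted). Circles with bars are the homeobox genes with exact 95% intervals, and diamonds are all protein-coding genes. The diamond lies right of the circle in every row. It lies inside the bar for IDR summits nearest to the own TSS and for those of genes with another TSS in the window. It also does so for both rows of isolated genes, where 6 of 40 homeobox genes with an IDR summit stand against 17.9% of all genes.

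Summits were sparser around the homeobox genes than around genes as a whole, and weaker by median signal than the whole pooled list. Their windows, 1242 kb together, held 236 pooled summits, or 19.0 per 100 kb, against 25.4 per 100 kb over the windows of all genes. Of the 236, 21 were in the IDR list (8.90%, 5.59 to 13.3), against 14.9% of the 27757 summits over all gene windows. The median signal of the 236, a value the authors' peak caller gave each peak, was 37.7, against 44.6 in the whole pooled list. Their 21 IDR summits had a median of 146 and ranged from 112 to 592, against a median of 168 and a range of 112 to 3978 in the whole IDR list. A q-value under 0.05 was deposited for 72 of the 236 (30.5%), against 43.2% of the pooled list. One gene, hth, held 64 of the 236 (27.1%). Without hth there were 172 pooled summits, 15.6 per 100 kb, of which 19 were IDR summits (11.0%). The summits of hth had a median signal of 34.7, and the median of the others was not computed.

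Most pooled summits at homeobox genes lay in introns, while most IDR summits lay at promoters, meaning within 1 kb of a protein-coding TSS. Introns held 141 of the 236 (59.7%), against 38.5% of the whole pooled list, and promoters 66 (28.0%), against 41.2%. These shares are not of like regions, since the whole list also holds summits outside every gene window. Of its 30000 summits, 27757 lay in a gene window, and positions over those alone were not counted. The homeobox genes are also longer than most. Of the promoter summits at homeobox genes 24.2% were IDR summits, against 25.0% of all promoter summits. For introns the share was 2.84%, against 6.80%. The long gene hth alone gave 64 of the 236 summits, with 2 in the IDR list, and positions were not counted without it. None of the 18 intergenic summits was an IDR summit, against 7.16% of all intergenic ones. With only 18 summits, a difference of this size cannot be read. The promoter share of the 21 IDR summits, 16 of them (76.2%), was near that of the whole IDR list, 72.4%. Of the 21, 15 lay before the TSS of the homeobox gene and 6 inside its body.

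**Figure D2:**
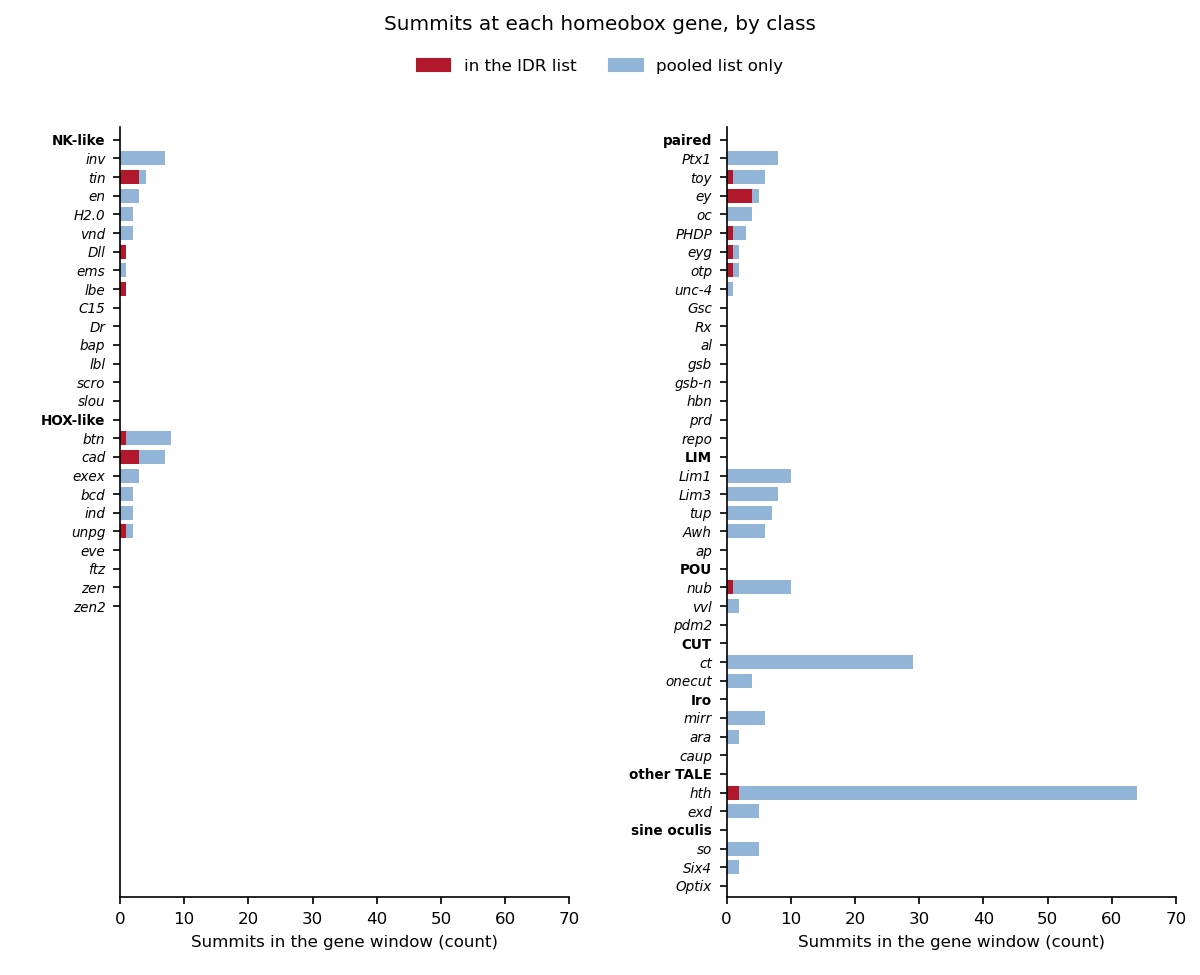
Number of pooled summits in the window of each of the 58 homeobox genes (x axis, count), grouped by class. Red parts are IDR summits and blue parts are in the pooled list only: hth with 64 and ct with 29 stand far above the rest, and 22 genes have none.

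In the NK-like class, 3 of 14 genes had IDR summits: tin, Dll and lbe. The gene tin, which is needed for the heart and the dorsal mesoderm, had 3. The one printed above, 243 bp before its TSS (3R, 21378694 to 21378832), had a pooled signal of 231 and ranked 674 in replicate 1 and 2389 in replicate 3. The others lay 2557 and 1548 bp before the TSS of tin, with signals of 155 and 146, but nearer to a TSS of the neighbouring gene mod(mdg4). For the second of these that TSS was 28 bp away. Dll, the selector gene of the distal appendages, had the strongest promoter summit of any homeobox gene on the list, 102 bp before its TSS (2R, 24814579 to 24814900). Its signal was 552, rank 161 of the pooled list, and it ranked 167 in replicate 1 and 184 in replicate 3. The lbe summit, 37 bp before the TSS of this muscle and heart identity gene (3R, 21446382 to 21446765), had a signal of 114, close to the lowest of the IDR list. It ranked 7698 in replicate 1 and 3242 in replicate 3, so it lay within the 4277 strongest peaks of replicate 3 but not of replicate 1.

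The other NK-like genes had weak summits or none. The segment polarity genes inv and en are neighbours with near-equal roles in posterior compartments. The gene inv had 7 pooled summits, the strongest with a signal of 93.3 at 127 bp before its TSS, and en had 3 with a highest signal of 37.6. That inv summit ranked 5957 in replicate 1 and 7556 in replicate 3, outside the top of both. The neuroblast gene vnd had 2 (highest signal 46.9), the visceral mesoderm gene H2.0 had 2 (50.3), and the head gap gene ems had 1 (40.1). C15, Dr, bap, lbl, scro and slou had no pooled summit.

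The 6 NK-like genes tin, bap, lbl, lbe, C15 and slou form a cluster on 3R that spans 178 kb (21378977 to 21557182). From the start of tin to the start of slou, that span held 13 pooled summits, or 7.29 per 100 kb, of which 4 were IDR summits. Their nearest TSSs were those of lbe and of the intervening genes Fancm, sp3 and CheB93b. Only 1 of the 4 was thus nearest to a homeobox gene, and the tin promoter summit lies just outside the span. The sp3 summit had a signal of 1006, above every summit in the windows of the 58 genes.

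**Figure D3:**
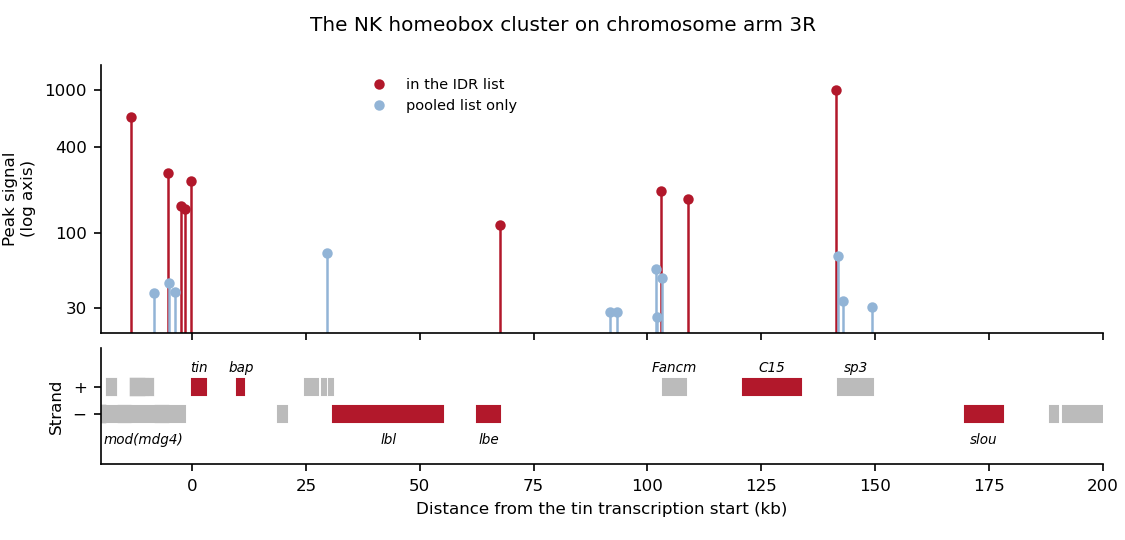
Pooled summits along the NK cluster: the x axis is the distance from the tin TSS in kb, the upper y axis the authors' peak signal (log axis), and the lower panel the genes by strand (red for the homeobox genes, grey for others). IDR summits (red stems) stand near tin, at lbe and at the genes between, with the highest, 1006, at sp3, and pooled-only summits (blue) reach less than 100.

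In the HOX-like class, 3 of 10 genes had IDR summits: cad, btn and unpg. The gene cad, which patterns the posterior body and the gut, had 3 of its 7 pooled summits in the IDR list. The strongest was intronic, 3021 bp into the gene (2L, 20773874 to 20774011), with a signal of 165. It ranked 2542 in replicate 1 and 2454 in replicate 3, inside the top of both. The summit 149 bp before the cad TSS had a signal of 116 and ranked 7834 in replicate 1 and 3244 in replicate 3. A further intronic one, 10095 bp into cad, had a signal of 124 and was nearer to the TSS of Pomp, 6667 bp off. Both of these weaker cad summits lay in the top of replicate 3 and outside that of replicate 1.

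For btn and unpg, the only IDR summit was nearer to another gene. The btn gene acts in the dorsal median cells of the embryonic midline. Its IDR summit (3R, 22587486 to 22587869, signal 176) was 1053 bp before the btn TSS and 77 bp from the TSS of Efa6. It ranked 1315 in replicate 1 and 2965 in replicate 3. That of unpg, a gene of the nervous system (2R, 9191878 to 9192261, signal 215), was 3135 bp before the unpg TSS and 26 bp from a TSS shared by CG45085 and CG8026. It ranked 797 in replicate 1 and 3031 in replicate 3. The motor neuron gene exex had 3 pooled summits with a highest signal of 88.0, and bcd (2, highest 73.1) and ind (2, highest 61.5) also had none in the IDR list. The pair-rule genes eve and ftz and the dorsal patterning gene zen with its neighbour zen2 had no pooled summit.

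The paired class had 8 IDR summits at 5 of its 16 genes, which is 31.2% of the largest class. The share over all genes was 44.7%. In the smaller classes the counts were 3 of 14 NK-like, 3 of 10 HOX-like, 1 of 3 POU and 1 of 2 other TALE genes. The eye selector genes ey and toy are paralogues on the small chromosome 4. The gene ey had 4 IDR summits of 5 pooled ones, and toy 1 of 6. The strongest at ey, 760 bp before its TSS (4, 696875 to 696971), had a signal of 188 and ranked 2005 in replicate 1 and 1632 in replicate 3. Another, 30 bp before the ey TSS, had a signal of 123 and ranked 6924 in replicate 1 and 2839 in replicate 3. The remaining ones at ey, with signals of 112 and 136, were nearest to the neighbouring gene myo, at 653 and 13 bp. The toy summit, 136 bp before its TSS (4, 989397 to 989780), had a signal of 129 and ranked 4504 in replicate 1 and 3384 in replicate 3.

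The other paired-class genes with an IDR summit were eyg, PHDP and otp. The summit of eyg, a gene of eye and salivary duct development, was 214 bp before its TSS (3L, 12468152 to 12468273). It had a signal of 213 and ranked 2570 in replicate 1 and 1003 in replicate 3. PHDP had a summit 323 bp before its TSS (2R, 23884571 to 23884954, signal 121), which ranked 2759 in replicate 3 and overlapped no peak of replicate 1. It was the one IDR summit of the 21 with no peak in a replicate. The gene otp, known from the hindgut and the brain, had the strongest summit at any of the 58 genes, with a signal of 592 and rank 139 in the pooled list (2R, 20884445 to 20884733). It ranked 313 in replicate 1 and 100 in replicate 3. This summit lay in coding sequence 12997 bp past the otp TSS, and its nearest TSS was that of Cib2, 4657 bp away. Among the rest, the head gap gene oc had 4 pooled summits (highest signal 77.5), Ptx1 had 8 (85.3) and unc-4 had 1 (69.0). Gsc, Rx, al, gsb, gsb-n, hbn, prd and repo had no pooled summit.

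Chromosome 4 held 5 of the 21 IDR summits at homeobox genes (23.8%), against 39 of the 4277 in the whole list (0.912%). Of the 5, 4 lay in the window of ey, with 2 of these nearest to the TSS of ey and the rest to that of myo. Of the 80 genes of chromosome 4, 39 had an IDR summit in the window (48.8%). The chromosome holds 3 of the 58 homeobox genes, ey, toy and onecut, against 80 of all 13968 genes. Without those 3, 11 of 55 homeobox genes had an IDR summit (20.0%).

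**Figure D4:**
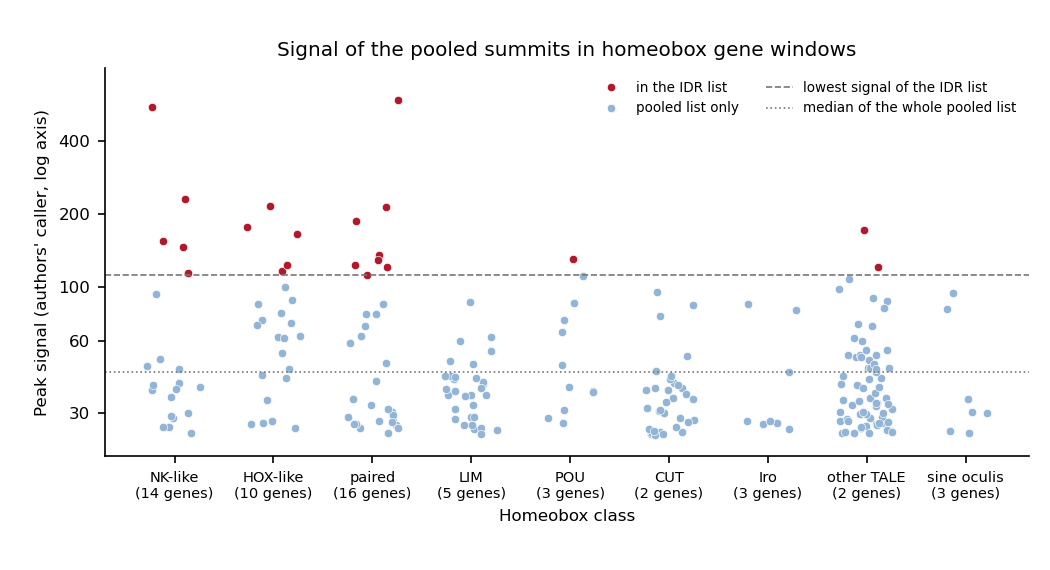
Authors' peak signal (y axis, log axis) of the 236 pooled summits in homeobox gene windows, by class (x axis). Each point is a summit, red if in the IDR list: Dll (552) and otp (592) stand above the others, and the LIM, CUT, Iro and sine oculis classes have no red point.

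The LIM, CUT, Iro and sine oculis classes, 13 genes in all, had no IDR summit, against 44.7% of all genes, or 17.9% of the isolated ones, and 10 of the 13 had pooled ones. With 10 kb in place of 5 kb around each TSS, the Iro and sine oculis classes had 1 gene each with an IDR summit. LIM-homeodomain proteins are best known for specifying motor neuron and interneuron types. Lim1 had 10 pooled summits (highest signal 54.4), Lim3 had 8 (49.3), tup had 7 (86.3) and Awh had 6 (61.8). The tup summit, 265 bp before the TSS of this islet-type gene, ranked 8887 in replicate 1 and 5618 in replicate 3. The wing and neuron gene ap had none. In the CUT class, ct, which sets the identity of external sense organs, had 29 pooled summits over a gene of 70432 bp. The strongest at ct had a signal of 95.3, lay in the 3′ UTR 44804 bp past a ct TSS, and was nearest to the TSS of CHES-1-like. It ranked 7539 in replicate 1 and 5065 in replicate 3. The other CUT gene, onecut, had 4 with a highest signal of 42.9.

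The Iro genes ara, caup and mirr lie side by side on 3L and pattern the eye, the notum and the nervous system. The gene mirr had 6 pooled summits, the strongest with a signal of 85.1 at 24 bp before its TSS. It ranked 14241 in replicate 1 and 3602 in replicate 3, so that it was among the strongest peaks of one replicate and not of the other. The gene ara had 2 (highest signal 28.0) and caup had none. Of the sine oculis class, the retinal determination gene so had 5 (80.8) and Optix had none. Six4 had 2, the stronger with a signal of 94.2, rank 4970 in replicate 3 and no peak in replicate 1, at a promoter of its neighbour CG11396.

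In the POU class, nub and pdm2 are adjacent paralogues that act in the temporal series of neuroblasts. The gene nub had 10 pooled summits, 1 of them in the IDR list (2L, 12593420 to 12593803, signal 130), in an intron 5987 bp past a TSS. It ranked 4197 in replicate 1 and 3483 in replicate 3, inside the top of both. The gene pdm2 had no summit in any list. The tracheal gene vvl had 2 pooled summits, the stronger at 25 bp past its TSS with a signal of 85.8, rank 9192 in replicate 1 and 4557 in replicate 3.

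The other TALE genes, hth and exd, encode partners that bind DNA together with Hox proteins and with each other. The 64 pooled summits of hth lay in a window of 137008 bp, 46.7 per 100 kb, and 16 of them had a q-value under 0.05. Only 2 were IDR summits. One was intronic, 16500 bp past a TSS (3R, 10597584 to 10597967), with a signal of 172 and ranks of 1805 in replicate 1 and 2142 in replicate 3. The other lay 32 bp past a TSS (3R, 10614052 to 10614435) with a signal of 121, and it ranked 12152 in replicate 1 and 2360 in replicate 3. The exd promoter summit, 28 bp past a TSS (X, 15992304 to 15992687), had a signal of 108, just under the lowest of the IDR list. It ranked 4027 in replicate 1 and 5833 in replicate 3.

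In 9 sets of adjacent or paralogous homeobox genes, an IDR summit lay in the windows of all genes of the set in 1, ey and toy. With an IDR summit at 22.4% of the 58 genes, nothing is read from that count. In lbe and lbl, tin and bap, and nub and pdm2, the first gene had IDR summits and the second had no pooled summit. In en and inv, the Iro genes, and so and Optix, no gene had an IDR summit. In gsb and gsb-n, and in zen and zen2, neither gene had a summit in any list. No summit lay in the windows of 2 homeobox genes.

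No pooled summit was found for 22 of the 58 genes, which all but 2 stand in windows with no other gene's TSS. Their windows together covered 377 kb, 30.4% of the whole, and the longest, of scro, covered 38.9 kb. In 13 of the 22 no summit of any of the 4 lists lay in the window: bap, slou, eve, ftz, zen, zen2, Gsc, gsb, gsb-n, hbn, prd, repo and pdm2. The glial master gene repo and the pair-rule genes eve, ftz and prd are among them. The lists hold at most 30000 peaks each and no read counts, so a window without a summit shows only that no peak there reached these lists.

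The replicates gave similar counts for the homeobox genes, with some summits strong in only one. Among the 4277 strongest peaks of each replicate, 12 of the 58 homeobox genes had a summit in replicate 1 (20.7%), against 44.7% of all genes. In replicate 3 they were 15 (25.9%), against 45.7%, and in both replicates 10 (17.2%), against 39.1%. All 21 IDR summits had an overlapping peak in replicate 3 and 20 had one in replicate 1. They ranked at 167 to 12152 in replicate 1 (median 2522) and at 100 to 4783 in replicate 3 (median 2965). Of the 21, 14 were within the top of replicate 1 and 19 within that of replicate 3. Both tops held 12 (57.1%), against 71.3% of the whole IDR list. Summits of matched peaks lay a median of 12.0 bp from the pooled summit in replicate 1 and 16.0 bp in replicate 3. The IDR peaks were chosen on the pool of both replicates, so this recurrence is partly fixed by the choice, and the same control alignment was used for both.

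**Figure D5:**
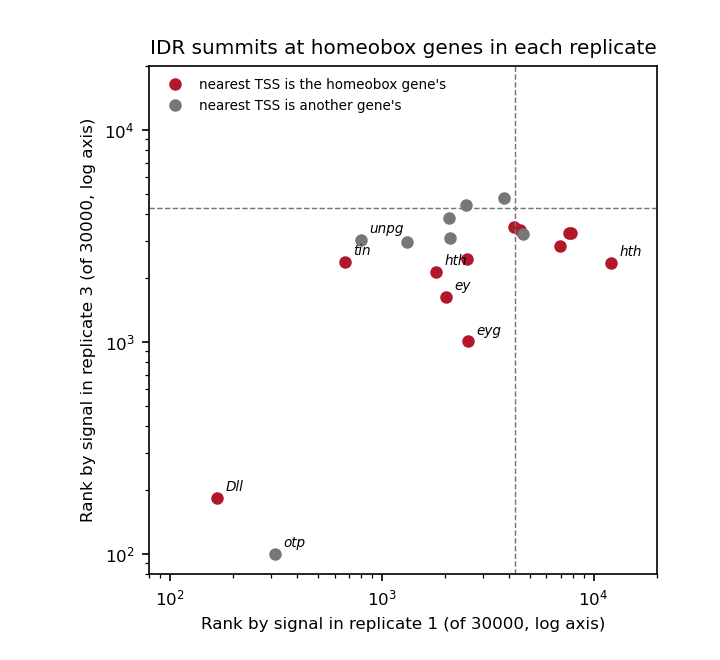
Rank by signal in replicate 1 (x axis) and replicate 3 (y axis), both log axes, of the 20 IDR summits at homeobox genes that have a peak in both replicates; dashed lines mark rank 4277 and colour shows whose TSS is nearest. Dll and otp rank best in both, and hth has a summit at rank 12152 in replicate 1 and 2360 in replicate 3.

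C15, which acts in the distal leg, had no pooled summit although each replicate had one at its promoter. The replicate 1 summit lay 297 bp before the TSS with rank 6772, and the replicate 3 summit 306 bp before it with rank 2486, and these peaks overlapped. Over the genome, 44 of the 4137 peaks of the replicate 3 top that overlapped a replicate 1 peak had no pooled peak over them (1.06%). Around caup, a replicate 3 peak 111 bp before the TSS ranked 5857 and had no counterpart in replicate 1 or in the pooled list. The remaining summits at genes without a pooled one all ranked at 12419 or beyond in their list, and none overlapped a peak of the other replicate.

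Counts of homeodomain-type sites at the 21 summits were too small to be told from the shares in the whole IDR list. Within 50 bp of the summit, on both strands, TAATTG lay at 2 of the 21 (9.52%), against 8.65% of all 4277 IDR summits. TAATTA, a palindrome, lay at 2 (9.52%), against 6.94%. TAATTT lay at 4 (19.0%), against 19.0%, and TAAACG at 1 (4.76%), against 5.49%. The first 3 of these share the letters TAATT. The site TATCGA lay at 4 (19.0%), against 12.3%, and GAGAGA at 1 (4.76%), against 4.28%. GGTCAC and CAGGTA lay at none of the 21, against 4.63% and 1.71%. With 21 summits 1 match is worth 4.76%, so differences of this size cannot be read. Over the 236 pooled summits at homeobox genes TAATTG had a share of 8.47%, against 8.70% of the pooled list, and TAATTA 3.39%, against 6.20%.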

How the data were processed

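ChIP-seq peak lists of 2 samples (B-H2-GFP embryos, replicates 1 and 3) in dm6 coordinates were used: 1 list per replicate, 1 pooled and the IDR list. The signal column is the value that the authors' peak caller gave each peak, as deposited, and served only for ranks and descriptions inside 1 list. The deposited −log10 q-value column reaches at most 4.09, a value that all IDR peaks hold. The sources used here give neither the peak caller nor the IDR threshold. One age entry of the labels is unreadable, so the hours come from the source label. Nothing says that the replicates came from separate embryo collections, and read depth is unknown.

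Gene models were those of Ensembl release 115 (BDGP6.54), with 13968 protein-coding genes and 19630 TSSs, and arm lengths matched dm6. Windows, counts of summits, nearest TSSs, positions and sites were computed with Python 3.11.15, numpy 2.4.6, pandas 2.3.3 and scipy 1.17.1 (exact Clopper-Pearson intervals, 95%, for the counting of genes or summits only), and plotted with matplotlib 3.10.9. Replicate peaks were matched by an overlap of 1 bp. The calculations were tested on simulated data. Alternatives covered the window, the assignment of summits, the overlap rule, a stricter IDR set, each replicate alone and the distance for sites.

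The members, classes, sites and lists were chosen with earlier results of these data known. Named are all members with an IDR summit or without a pooled one, in each class without an IDR summit the member with the strongest pooled summit, the 5 others of strongest and the 5 of most pooled summits, and sets of paralogues. Members outside that rule are given by their counts. No test was run, since there is 1 group.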

Additional observations from a re-analysis of the deposited data

How the results depend on the processing

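The number of homeobox genes with an IDR summit, 13, moved by more than 1.5 times with the gene body alone, to 4 (against 11.5% of all genes), and with the stronger part of the IDR list (its 2138 peaks of highest signal), to 8 (against 30.3%). The 21 IDR summits became 10 within 1 kb of a TSS, 6 in the gene body alone, 13 by nearest TSS and 8 in the stronger part. Their share of pooled summits, 8.90%, became 14.2% within 5 kb of a TSS, 22.7% within 1 kb, 3.68% in the gene body and 3.39% in the stronger part. The 36 genes with a pooled summit became 22 in the gene body alone (37.9%, against 35.3% of all genes, so that here the homeobox share is the higher one). These alternatives count smaller windows, fewer peaks or fewer assigned summits. Without one replicate, genes with a top summit numbered 12 to 15, summits 16 to 23, the share 7.69% to 8.95%, and genes with any summit 41 in either list. Of 45 alternative class counts 9 moved by more than 1.5 times. Within 100 bp of the 21 summits, TAATTT came to 42.9% (against 33.7% of the IDR list), outside the interval of its share within 50 bp. The other 7 site shares stayed inside theirs, though TAATTG came to 23.8% (16.6%), GAGAGA to 14.3% (10.3%) and TAAACG to 9.52% (9.91%), each more than 1.5 times its share within 50 bp. A wider window holds more sites by construction. No paired analysis was possible because there is 1 group. Unknown read depth, 2 replicates and the label conflict limit every count.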

Other observations

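Homeobox genes that are not among the 58 were counted the same way. Of 34 such genes, 9 had an IDR summit in the window (26.5%), against 44.7% of all genes, and 21 had a pooled one, against 77.0%. When the nearest TSS had to be the gene's own, 6 of the 34 had an IDR summit, against 21.9% of all genes. Of the 8 Hox genes 1 had an IDR summit, Abd-B, which specifies the posterior abdomen, with 2 IDR summits and a highest signal of 189. Of the Bar genes, B-H2 itself had 2 IDR summits with a highest signal of 175, and B-H1 had none, its strongest pooled summit having a signal of 67.7. The strain carries a B-H2-GFP transgene, and whether it adds to the signal at B-H2 was not tested. The other 24 genes included 7 with an IDR summit (29.2%, against 44.7% of all genes). For 4 of the 24 such a summit was nearest to the gene's own TSS, against 21.9% of all genes. The strongest summit was nearest to the gene's own TSS for zfh1 (signal 256), NK7.1 (200), zfh2 (198) and dve (174). For Pph13 (326) it was nearest to cold, for CG11294 (209) to Ppt1 and for ro (169) to T48.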
